A study of Mus musculus with 24 samples.

Results

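The 9 genes described here encode parts of the plasminogen system and 4 matrix metalloproteinases, chosen by symbol from 45706 gene identifiers. Plasminogen is a circulating zymogen that is cleaved to the broad protease plasmin by the urokinase-type activator, encoded by Plau, or by the tissue-type activator, encoded by Plat. Plaur encodes the cell surface receptor that holds urokinase at the membrane, and Serpine2 (protease nexin-1) and Serpinb2 (plasminogen activator inhibitor-2) encode inhibitors of these activators. Plasmin can in turn activate secreted matrix metalloproteinases (MMPs), zinc enzymes that cleave collagens and other matrix proteins. Among these, Mmp13 encodes a collagenase and Mmp10 a stromelysin, whereas Mmp14 and Mmp15 encode MMPs that are anchored in the plasma membrane. In the gut, much of this protease activity is known from the stroma and from immune cells, while injured or transformed epithelium is known to express the urokinase receptor.

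Their transcripts were measured by RNA-Seq in organoids, gel cultures of epithelium that start from mouse crypts of the proximal small intestine (SI) or the colon (COL). All cultures were of strain C57BL/6N and carried Villin::CreERT2, a Cre recombinase that the Villin promoter drives in intestinal epithelium and that 4-hydroxytamoxifen (4-HT) activates. They further carried BraffloxV600E/+ (called BRAF), Trp53LSL-R172H/+ (called p53) or both, BraffloxV600E/+;Trp53LSL-R172H/+ (called BRAFp53), so that recombination switched on BRAFV600E, a constitutively active kinase upstream of MEK and ERK, the p53R172H mutant, or both. Induced (on) organoids received 4-HT for 24 h and non-induced (off) organoids ethanol. The dose was 0.5 µM in SI and 3.5 µM in COL organoids, and RNA was isolated on day 8 and on day 3, respectively, after induction. COL medium also held Wnt3a and the GSK3 inhibitor CHIR99021. Each of the 12 groups had 2 libraries, with a single donor culture behind each genotype in each tissue. A difference between genotypes is therefore also one between cultures, tissue cannot be told apart from dose, day, medium and culture, and the spread between 2 libraries is that of handling and not of animals. The age of the donors is not given in the sources used here.

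COL libraries held 51.2 to 78.2 M counts (M, 1000000) and SI libraries 44.4 to 68.2 M. The 2 libraries of a group differed by more than counting error in every group (chi-square per degree of freedom 20.5 to 92.4). Levels are counts scaled to a library of 1 M (CPM), with library sizes corrected within a tissue by the trimmed mean of M-values. The floor of 3 counts lay at 0.0408 to 0.0638 CPM in COL and 0.0437 to 0.0774 CPM in SI libraries, for counting error only. Trp53, whose conditional allele is silent until recombined, was higher on induction by a log2 fold change of 0.94 in COL p53 and 0.94 in COL BRAFp53, 0.76 in SI p53 (adjusted p = 0.194) and 0.52 in SI BRAFp53. In the cultures without that allele it fell, by 0.44 in COL BRAF (adjusted p = 0.0332) and by 0.62 in SI BRAF (adjusted p = 0.00351) on the log2 scale. Counts per gene do not separate the alleles of Braf. The 8 epithelial markers summed to 4831 to 21480 CPM over all libraries. Their sum was higher in on than in off libraries in the 4 arms with BRAFV600E, at 7828 to 8131 CPM off and 18140 to 19305 CPM on in COL BRAF, 8190 to 8636 and 16817 to 21480 CPM in COL BRAFp53, 5976 to 6091 and 11681 to 12966 CPM in SI BRAF, and 4831 to 5093 and 7417 to 7454 CPM in SI BRAFp53. The 8 fibroblast markers summed to 0.502 to 2.79 CPM in COL and 0.563 to 3.33 CPM in SI. In SI BRAF the fibroblast sum was 1.39 to 1.65 CPM off and 2.04 to 3.33 CPM on, and that of 4 endothelial markers 0.0648 to 0.253 and 1.01 to 1.54 CPM. The only fibroblast marker above 0 in SI BRAF on was Pdgfrb (group means 1.49 CPM off, 2.69 CPM on). The only endothelial markers above 0 there were Pecam1 (0.138 and 0.646 CPM) and Tek (0.0105 and 0.629 CPM). The fibroblast sum was lower in on than in off libraries of COL BRAF (2.06 to 2.63 CPM off, 0.502 to 1.94 CPM on) and COL BRAFp53 (2.23 to 2.45 and 1.26 to 1.497 CPM). The sum of 4 smooth muscle markers was 0.311 to 0.367 CPM off and 0.745 to 1.82 CPM on in COL BRAF, and 0.138 to 0.186 and 0.395 to 0.792 CPM in COL BRAFp53. In SI BRAF it was 0.148 to 0.389 CPM off and 0.0401 to 0.0774 CPM on. Des changed most in COL BRAF (group means 0.148 CPM off, 0.847 CPM on), while Myh11 was lower (0.149 and 0.138 CPM). In COL BRAFp53 Des (0 and 0.315 CPM) and Actg2 (0.00764 and 0.204 CPM) were higher and Acta2 lower (0.154 and 0.0742 CPM). Thy1 was at 0 in all 24 libraries. The 8 immune markers summed to 7.36 to 7.66 CPM in SI BRAF off and 18.0 to 25.9 CPM in SI BRAF on, to 3.68 to 6.14 and 13.6 to 16.1 CPM in SI BRAFp53, to 7.76 to 9.45 and 10.4 to 11.6 CPM in COL BRAF, and to 7.67 to 7.77 and 14.3 to 14.9 CPM in COL BRAFp53, with Adgre1 and Mpo at 0 in all SI libraries. Single markers went different ways within these sums. In SI BRAF the group means of Itgam (5.96 to 17.7 CPM) and Csf1r (0.522 to 3.47 CPM) were higher on induction and that of Cd68 lower (0.967 to 0.678 CPM). In SI BRAFp53 Csf1r (0.995 to 8.82 CPM) and Itgam (2.57 to 5.09 CPM) were higher. Cd68 (1.12 to 0.966 CPM), Lyz2 (0.187 to 0 CPM) and Ptprc (0.0442 to 0 CPM) were lower there. In COL Cd68 was higher (4.32 to 8.20 CPM in BRAF, 3.36 to 12.3 CPM in BRAFp53), as was Lyz2 (0 to 0.149 and 0.438 to 0.622 CPM). Itgam (3.36 to 2.24 and 3.08 to 1.02 CPM) and Ptprc (0.491 to 0.323 and 0.816 to 0.320 CPM) were lower in COL. Csf1r was lower in COL BRAF (0.426 to 0.0213 CPM) and higher in COL BRAFp53 (0.0307 to 0.322 CPM). Thus some of these sums moved with the rising genes below and some against them, and their part in the results was not tested.

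One library stood apart. In the SI BRAF culture, Mmp14 had 3 and 4 counts in the off libraries and 2 counts in on replicate 2, but 89 counts (1.78 CPM) in on replicate 1. Genes were then sought that reached at least 3 CPM in all 4 groups of the SI p53 and SI BRAFp53 cultures and at most 3% of that level in the other 3 SI BRAF libraries, a rule chosen after the values of Mmp14 were seen. Exactly 3 genes met it, Mmp14, Xist and Fam149a. In SI BRAF on replicate 1 these stood at 13.2%, 12.2% and 16.4% of the mean level in the other 2 cultures. Another 4 genes (Mcpt2, Tmprss15, Mup20 and Ugt2b38) reached 3 CPM in SI BRAFp53 on and at most 3% of that level in the other SI groups, this library aside, and these stood at 0 to 2.86% of their SI BRAFp53 on level in this library. Xist, the long RNA of the inactive X chromosome, had 770 counts there and 27 or fewer in the other 3 libraries, so that this library holds transcripts that were at or near 0 in the rest of its culture. Hoxa7, from the comparison of patterns below, had 81 counts in this library and at most 2 in the other 3. It was at 3.30 to 8.44 CPM in the SI BRAFp53 libraries and 0.295 to 0.622 CPM in the SI p53 libraries. The source of these reads was not tested. Calls of members in SI BRAF are given with and without on replicate 1. Xist also differed between the tissues' cultures of 1 genotype, with 0 to 3 counts in the COL p53 and COL BRAFp53 libraries and 6123 to 9743 counts in the SI p53 and SI BRAFp53 libraries, so that this difference too cannot be told apart from tissue.

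**Figure D1:**
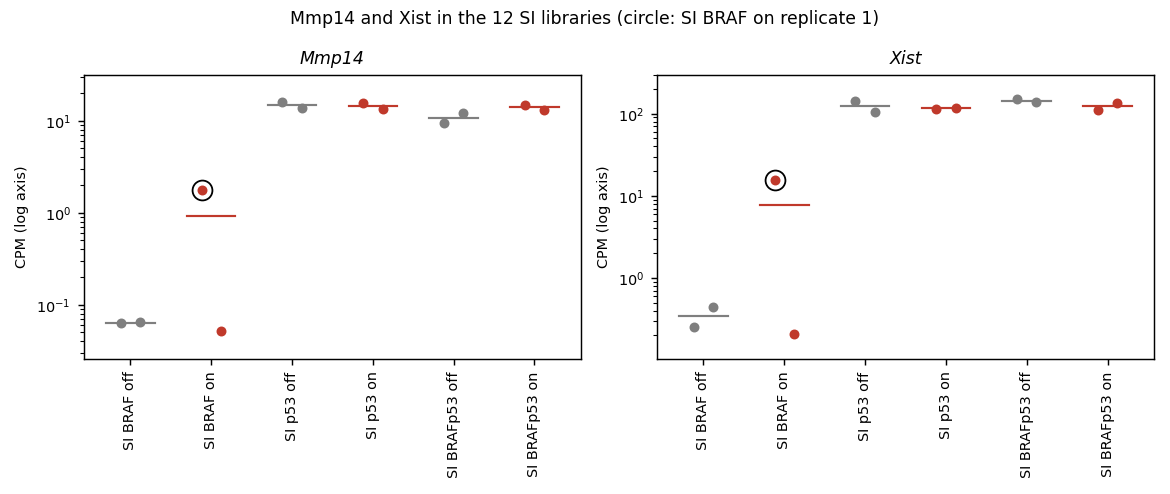
Level in CPM (log axis) of Mmp14 (left) and Xist (right) in the 12 SI libraries, with points for libraries and bars for group means. The circled SI BRAF on replicate 1, at 1.78 CPM of Mmp14 and 15.4 CPM of Xist, lies between the other SI BRAF libraries and the 2 other cultures.

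The receptor gene Plaur (ENSMUSG00000046223, chr7:24462484-24475968, plus strand, GRCm38) had the highest level per kilobase of exon of all members in the 6 COL groups, with libraries that overlapped those of Mmp15 in COL BRAFp53 off, and in both SI on groups with BRAFV600E. It rose in each of the 4 arms with BRAFV600E, with log2 fold changes between 2.12 and 2.97. In COL BRAF organoids, the off libraries were at 47.5 and 48.7 CPM and the on libraries at 228 and 191 CPM (4.36-fold, log2 fold change 2.12, SE 0.20, adjusted p = 3.99e-05, edgeR quasi-likelihood test with Benjamini-Hochberg adjustment over all genes). COL BRAFp53 organoids went from 47.7 and 37.9 CPM to 221 and 199 CPM (4.90-fold, 2.29, SE 0.20, adjusted p = 4.48e-05). The on libraries of both genotypes thus reached the same range, from 191 to 228 CPM, and lay far above their off libraries.

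In SI organoids the receptor transcript started lower. SI BRAF off libraries were at 7.23 and 6.16 CPM and on libraries at 25.7 and 46.6 CPM (5.40-fold, log2 fold change 2.43, SE 0.30, adjusted p = 4.5e-05). The lower of the on values is that of replicate 1, and without this library the log2 fold change was 2.82. SI BRAFp53 organoids went from 3.68 and 3.31 CPM to 20.4 and 34.2 CPM (7.81-fold, 2.97, SE 0.31, adjusted p = 3.62e-05). The induced SI libraries, at 20.4 to 46.6 CPM, overlapped the off libraries of COL BRAFp53 and lay below the 4 induced COL libraries with BRAFV600E. The response did not differ between tissues by the test of the difference (COL less SI -0.36, SE 0.37, adjusted p = 0.648 for BRAF, and -0.71, SE 0.38, adjusted p = 0.353 for BRAFp53), which does not show that the responses were alike.

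With p53R172H alone Plaur was at 121 and 114 CPM in COL off and at 208 and 129 CPM in COL on libraries (log2 fold change 0.52, SE 0.19, adjusted p = 0.442). Both on libraries were above both off libraries, and the difference was not called. In SI p53 organoids the values were 3.00 and 2.20 CPM off and 2.75 and 2.19 CPM on, which overlap. The COL p53 culture differed from the others before induction, as its off level of 118 ± 5.36 CPM (SD, n = 2) compares with 48.1 ± 0.840 CPM in COL BRAF and 42.8 ± 6.93 CPM in COL BRAFp53.

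Plat (ENSMUSG00000031538, chr8:22757727-22782844, plus strand), the gene of the tissue-type activator, also rose in the 4 arms with BRAFV600E. COL BRAF organoids went from 8.91 and 7.57 CPM to 41.9 and 38.3 CPM (4.87-fold, log2 fold change 2.28, SE 0.36, adjusted p = 0.00113). COL BRAFp53 organoids went from 19.6 and 11.9 CPM to 86.7 and 56.6 CPM (4.54-fold, 2.18, SE 0.35, adjusted p = 0.00154). The replicates of COL BRAFp53 were wider apart than those of COL BRAF, but their on and off values did not overlap.

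SI BRAF organoids went from 1.64 and 0.891 CPM of Plat to 20.3 and 20.6 CPM (16.1-fold, log2 fold change 4.03, SE 0.71, adjusted p = 0.000785), the largest change called for a member in SI. Without SI BRAF on replicate 1 it was 4.06 (adjusted p = 0.00152). SI BRAFp53 organoids went from 1.72 and 0.890 CPM to 10.8 and 9.41 CPM (7.76-fold, 2.95, SE 0.68, adjusted p = 0.0132). The call in SI BRAFp53 was lost without off replicate 2 (2.56, adjusted p = 0.122) and in DESeq2 (2.97, adjusted p = 0.0555). The BRAFp53 response was lower than the BRAF response in SI by 1.08 (SE 0.94), and this difference was not called (adjusted p = 0.548).

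In COL p53 organoids Plat was at 33.2 and 28.8 CPM off and at 74.9 and 32.2 CPM on (log2 fold change 0.79, SE 0.34, adjusted p = 0.559), so that on replicate 2 lay close to the off libraries. SI p53 off replicate 1 held 2 counts (0.0296 CPM), below the floor, whereas its partner held 83 counts (1.22 CPM) and the on libraries 1.30 and 0.799 CPM. No change is read from these 4 values.

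Plau (ENSMUSG00000021822, chr14:20836660-20843385, plus strand), the gene of urokinase itself, was scarce in organoids of both tissues. It had 0 counts in all 12 SI libraries, which allows up to 0.0774 CPM in the shallowest of them, while its receptor Plaur had 126 to 2247 counts there. In COL organoids the off libraries of BRAF held 7 and 29 counts and the on libraries 6 and 12. COL BRAFp53 held 0 and 53 counts off and 14 and 6 counts on, so that off replicate 1 had none and off replicate 2 the most. COL p53 held 41 and 28 counts off and 68 and 94 counts on (0.601 and 0.417, then 1.0 and 1.33 CPM). These last groups did not overlap, yet no arm passed the test (log2 fold change -0.80, -1.45 and 1.19 in COL BRAF, BRAFp53 and p53, adjusted p = 0.746, 0.495 and 0.895). In these counts the sign for COL BRAF and COL BRAFp53 depended on single libraries, with ranges of -1.60 to 0.68 and -2.42 to 6.25 when each library was left out.

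The inhibitor gene Serpine2 (ENSMUSG00000026249, chr1:79794197-79861180, minus strand) was close to the floor in 2 of the 3 COL off groups and rose there on induction. COL BRAF held 1 and 5 counts off and 84 and 84 counts on, or 0.0155 and 0.0874 against 1.41 and 1.79 CPM (log2 fold change 4.94, SE 0.93, adjusted p = 0.00319). Leaving out off replicate 1 gave 4.15 and leaving out off replicate 2 gave 6.51, both called. COL BRAFp53 held 2 and 13 counts off and 44 and 81 counts on, or 0.0310 and 0.199 against 0.599 and 1.37 CPM (3.07, SE 0.83, adjusted p = 0.0248). The call in COL BRAFp53 was lost without off replicate 1 (2.32, adjusted p = 0.105), without on replicate 2 (2.36, adjusted p = 0.132) and with the spread estimated from these 4 libraries only (adjusted p = 0.0765). COL p53 held 40 and 91 counts off and 110 and 122 counts on (0.79, SE 0.72, adjusted p = 0.878). In SI organoids Serpine2 had 10 counts or fewer in each library and was not tested.

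Serpinb2 (ENSMUSG00000062345, chr1:107511423-107535478, plus strand), the other inhibitor gene, had 5 counts in COL BRAF on replicate 1 and none in the other 23 libraries. Its exons overlap Serpinb10 on the same strand, so that even these reads are uncertain. It passed the filter on low counts in neither tissue.

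Of the membrane MMPs, Mmp15 (ENSMUSG00000031790, chr8:95352268-95375080, plus strand) rose in COL BRAF organoids, from 39.6 and 38.2 CPM to 89.3 and 93.3 CPM (2.35-fold, log2 fold change 1.23, SE 0.18, adjusted p = 0.000605). COL BRAFp53 organoids started higher, at 63.5 and 78.8 CPM, and reached 96.8 and 94.5 CPM (0.43, SE 0.17, adjusted p = 0.113, or 0.0197 without the filter on low counts). The induced levels of both genotypes were between 89.3 and 96.8 CPM. The responses differed by -0.80 (SE 0.24, adjusted p = 0.115), which was called by DESeq2 (adjusted p = 0.0261) and without the filter on low counts (adjusted p = 0.00819). COL p53 was at 44.7 and 56.4 CPM off and 88.1 and 60.8 CPM on (0.56, SE 0.17, adjusted p = 0.323), higher in both on libraries but not called.

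In SI organoids Mmp15 lay lower in every library. SI BRAF was at 14.3 and 14.3 CPM off and 17.9 and 20.4 CPM on (log2 fold change 0.42, SE 0.16, adjusted p = 0.0588), and passed without on replicate 1 (0.53, adjusted p = 0.0453), in DESeq2 (adjusted p = 0.0303) and after scaling by RLE (adjusted p = 0.0431). SI BRAFp53 was at 10.5 and 10.1 CPM off and 11.5 and 11 CPM on, and SI p53 at 10.02 and 9.84 CPM off and 11.7 and 8.90 CPM on, neither called (adjusted p = 0.697 and 1). The BRAF response was larger in COL than in SI by 0.77 (SE 0.23, adjusted p = 0.0389), a call that was lost in 7 of 8 fits that left out a library (adjusted p up to 0.123), in limma-voom (adjusted p = 0.069) and with a replicate block (adjusted p = 0.0892). The BRAFp53 responses differed by 0.26 (SE 0.23, adjusted p = 0.622), which was not called.

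Mmp14 (ENSMUSG00000000957, chr14:54431612-54445364, plus strand), the activator of the secreted enzyme encoded by Mmp2, had 1628 to 3616 counts in the COL libraries and passed the test in no COL arm. COL BRAF was at 49.2 and 42.6 CPM off and 58.3 and 60.7 CPM on (log2 fold change 0.38, SE 0.13, adjusted p = 0.0612), past the threshold in DESeq2 (adjusted p = 0.0280) and in the 4 libraries alone (adjusted p = 0.0403). COL BRAFp53 was at 50.6 and 51.8 CPM off and 49.2 and 51.9 CPM on, which overlap (-0.02, SE 0.13, adjusted p = 0.946). COL p53 had a lower level than the other cultures, at 23.9 and 25.5 CPM off and 35.5 and 28.6 CPM on (0.38, SE 0.13, adjusted p = 0.416).

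SI p53 organoids had 15.9 and 13.9 CPM of Mmp14 off and 15.4 and 13.6 CPM on, and SI BRAFp53 organoids 9.34 and 12 CPM off and 14.8 and 13.2 CPM on, neither called (adjusted p = 1 and 0.692). The SI BRAF culture was at 0.0632 and 0.0648 CPM off, at about the floor, and at 1.78 and 0.0516 CPM on. The fit of all libraries called a rise there (3.88, SE 1.01, adjusted p = 0.0102), but without on replicate 1, the library with transcripts of Xist and Fam149a, the log2 fold change was -0.28 (adjusted p = 0.881). The call was also lost without off replicate 1 (3.88, adjusted p = 0.0531), without off replicate 2 (3.92, adjusted p = 0.0751) and in limma-voom (2.45, adjusted p = 0.259). The difference between the tissues' BRAF responses likewise went from -3.56 (SE 0.97, adjusted p = 0.0230) to 0.63 (adjusted p = 0.829) without that library, and 5 of 8 fits without a library lost this call. The near absence of Mmp14 in 3 of 4 libraries of 1 SI culture, against 9.34 to 60.7 CPM in the 20 libraries of the other 5 cultures, is a difference between cultures that the design cannot tell apart from genotype.

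The secreted MMPs of the list were at or below detection. Mmp10 (ENSMUSG00000047562, chr9:7502352-7510240, plus strand) had 0 counts in all 24 libraries. Mmp13 (ENSMUSG00000050578, chr9:7272514-7283331, plus strand) had 1 count in COL BRAF on replicate 1 and 1 count in SI BRAF on replicate 2. A count of 0 allows up to 0.0638 CPM in COL and 0.0774 CPM in SI, so that an induction within these limits was not detectable at this depth.

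**Figure D2:**
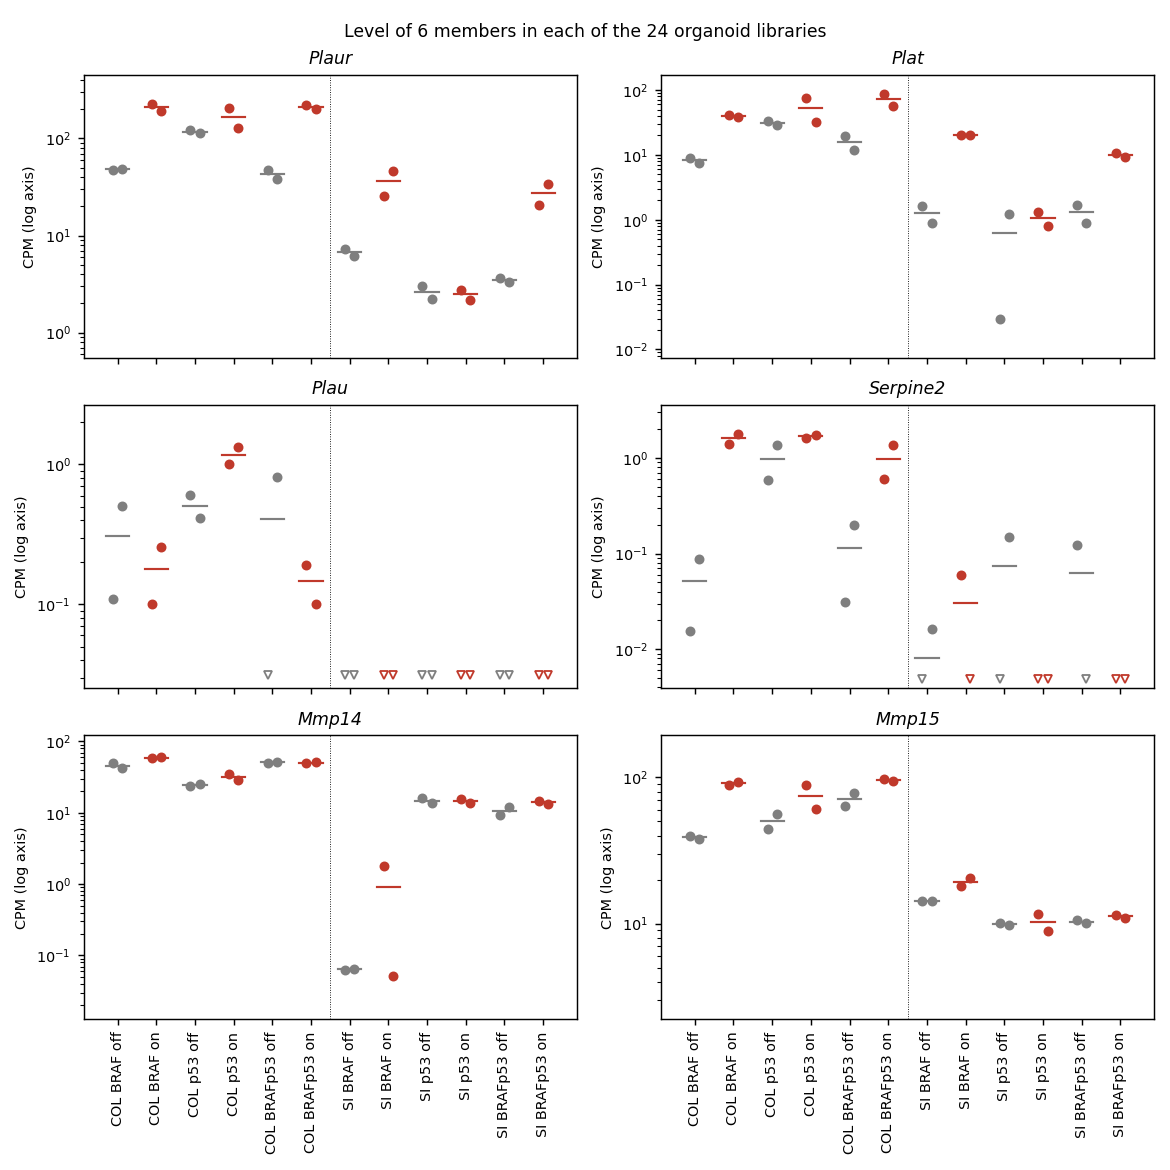
Level in CPM (log axis, own range in each panel) of Plaur, Plat, Plau, Serpine2, Mmp14 and Mmp15 in the 24 libraries, with grey points for off and red points for on libraries, bars for the mean of 2 libraries, and open triangles for libraries at 0. Plaur reaches 191 to 228 CPM in both COL groups with BRAFV600E on, and Plau is at 0 in all 12 SI libraries.

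Promoter sequences were read to place the responding receptor beside the undetected MMPs. They were taken from RefSeq (GRCm38.p6) and cover the 250 bases before the annotated start, and 7 of the 9 genes had an entry, with none used for Plau and Plat. The 7-base AP-1 motif TGAGTCA, on either strand (TGACTCA), which FOS and JUN proteins are known to bind, was found in Plaur, Mmp10 and Mmp13 and is held by 4.46% of 32851 promoters. Its first base lay 69, 63 and 35 bases before the start. It was not found in Serpine2, Serpinb2, Mmp14 or Mmp15. The sequences of the 3 genes with the motif, and of Mmp15 as a responding gene without it, are given 5′ to 3′ on the strand of the gene, with the AP-1 motif in capitals.
Plaur, chr7:24462233-24462482: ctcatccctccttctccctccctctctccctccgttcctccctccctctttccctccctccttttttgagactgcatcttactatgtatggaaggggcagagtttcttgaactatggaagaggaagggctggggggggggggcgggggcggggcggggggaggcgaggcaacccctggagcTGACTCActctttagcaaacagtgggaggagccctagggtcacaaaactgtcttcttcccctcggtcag
Mmp10, chr9:7502092-7502341: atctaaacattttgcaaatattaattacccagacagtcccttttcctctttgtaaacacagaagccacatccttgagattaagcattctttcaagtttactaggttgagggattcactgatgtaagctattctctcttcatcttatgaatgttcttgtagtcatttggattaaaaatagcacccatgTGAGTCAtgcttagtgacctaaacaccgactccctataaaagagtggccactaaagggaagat
Mmp13, chr9:7272264-7272513: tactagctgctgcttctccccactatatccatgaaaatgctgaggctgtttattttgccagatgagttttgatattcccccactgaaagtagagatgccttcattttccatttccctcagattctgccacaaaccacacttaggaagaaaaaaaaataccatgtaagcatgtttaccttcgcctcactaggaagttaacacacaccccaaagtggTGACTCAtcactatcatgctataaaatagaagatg
Mmp15, chr8:95352046-95352295: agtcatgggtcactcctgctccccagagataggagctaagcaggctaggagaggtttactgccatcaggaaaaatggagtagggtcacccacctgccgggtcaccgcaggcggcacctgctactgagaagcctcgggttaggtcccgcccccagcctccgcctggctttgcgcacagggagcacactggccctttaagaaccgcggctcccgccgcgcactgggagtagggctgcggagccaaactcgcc

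The 3 promoters with the AP-1 motif thus belonged to a gene that reached 228 CPM and to a pair of genes with at most 1 count per library. Mmp10 and Mmp13 also had the TATA motif TATAAA on the gene's own strand, 29 and 16 bases before the start, which 7.59% of promoters hold, and which was also found in Serpinb2. The GC box GGGCGG, on either strand (CCGCCC), held by 32.7% of promoters, was found in Plaur, Serpine2, Mmp14 and Mmp15, which are the 4 detected genes with an entry, and in none of Serpinb2, Mmp10 and Mmp13. The ETS motif AGGAAG, on either strand (CTTCCT), held by 29.5% of promoters, was found in Plaur, Serpine2, Mmp13 and Mmp14. A match of letters is a description of these windows and not a bound site.

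Counted over the members, 6 of 9 passed the filter on low counts in COL and 4 of 9 in SI, and Serpinb2, Mmp10 and Mmp13 passed in neither. In COL BRAF 4 of 6 rose and none fell, where 19.9% of all genes tested were called and 10.3% were called higher. In COL BRAFp53 3 of 6 rose (17.7% of all genes called, 9.95% higher). In SI BRAF 3 of 4 rose (31.7% called, 17.5% higher), and without on replicate 1 these were Plaur, Plat and Mmp15 in place of Plaur, Plat and Mmp14. In SI BRAFp53 2 of 4 rose (11.5% called, 6.98% higher). No member was called in COL p53, where 0.142% of genes were called and 4 of 6 members had unadjusted p of 0.00746 to 0.0389, beside 8.34% of all genes with an unadjusted p under 0.05. None was called in SI p53, where edgeR called 0 genes (0%), 873 genes had an unadjusted p under 0.05, DESeq2 called 65 and limma-voom 1. In COL p53 the calls depended on the filter, as Plaur, Plat and Mmp15 passed without it (adjusted p = 0.0117, 0.000245 and 0.0103). These shares depend on single libraries. The 3776 genes called in COL BRAF became 1987 to 2504 without any one of its libraries. The 3360 of COL BRAFp53 became 2207 without off replicate 2 and 1664 without on replicate 1, and the 1941 of SI BRAFp53 became 1074, 1030 and 878 without off replicate 1, off replicate 2 and on replicate 2. The 27 of COL p53 became 0 without off replicate 1, 9 without on replicate 1 and 46 without on replicate 2. The median log2 fold change of all genes was between -0.06 and 0.08 in every comparison. No member's response differed between BRAFp53 and BRAF (0.907% of genes in COL and 8.20% in SI were called), and without the filter on low counts 1 member was called in each. Between the tissues, 10.7% of genes differed in the BRAF response and 3.52% in the BRAFp53 response. Mmp14 and Mmp15 were called in the former, with the limits given above, and no member in the latter.

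**Figure D3:**
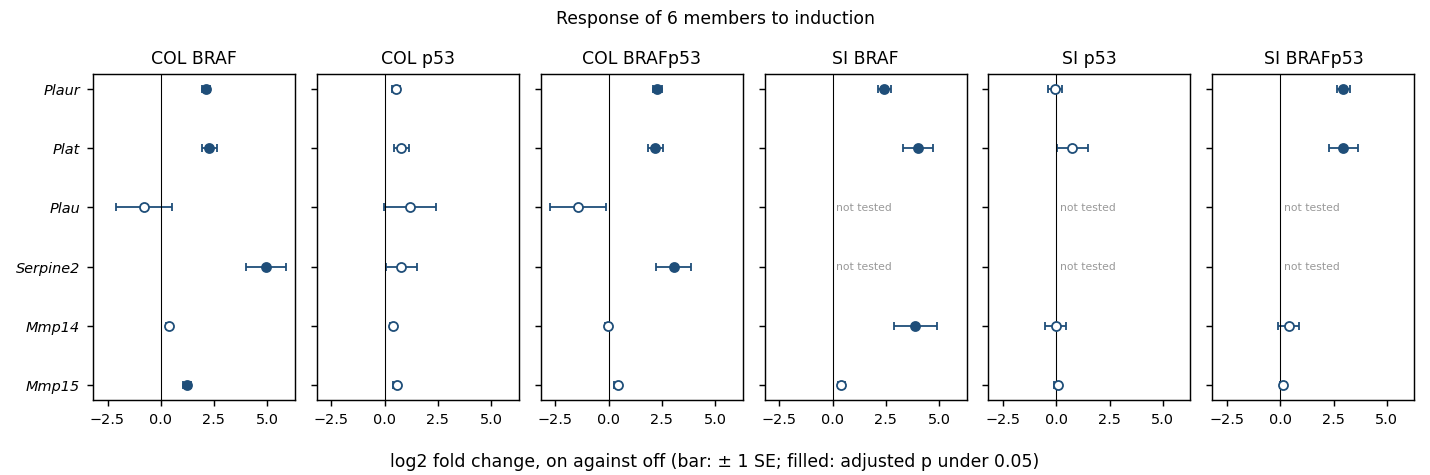
Log2 fold change of on against off for 6 members (rows) in the 6 arms (panels), with bars of 1 SE and filled points for an adjusted p under 0.05. Plaur and Plat are filled in the 4 arms with BRAFV600E and in neither p53 arm, and the filled point of Mmp14 in SI BRAF rests on replicate 1.

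Before induction, 4 of the 5 members tested were called higher in COL than in SI organoids, and 1 of these, Plau, had counts in COL only. With the 2 off libraries of each culture summed, Plaur was at 45.5, 113 and 40.8 CPM in COL BRAF, p53 and BRAFp53 and at 7.48, 2.96 and 3.96 CPM in the SI cultures (log2 difference 3.79, SE 0.54, adjusted p = 0.00403). Plat was at 7.84, 29.8 and 15.0 CPM in COL and at 1.38, 0.716 and 1.48 CPM in SI (3.88, SE 0.56, adjusted p = 0.00428). For both genes the 3 COL cultures lay above the 3 SI cultures. Mmp15 was at 36.9, 48.4 and 67.8 CPM in COL and at 16.2, 11.3 and 11.7 CPM in SI (1.97, SE 0.26, adjusted p = 0.00342). Plau was called too (adjusted p = 0.00457), with 36, 69 and 53 counts in COL and 0 in SI. It passed the filter on low counts through the COL cultures alone, so that it could only have been called higher in COL. Mmp14, at 43.6, 23.7 and 48.8 CPM against 0.0725, 16.9 and 12.1 CPM, was not called (1.99, SE 1.23, adjusted p = 0.260), but passed without the SI BRAF culture (1.41, adjusted p = 0.0330). Of all genes 29.6% were called in this comparison and 17.0% were higher in COL. The 5270 genes called became 2716 to 5202 when 1 culture was left out, lowest without SI p53 and next lowest without SI BRAFp53. Serpine2 was not tested, and its 6, 131 and 15 counts in COL and 1, 10 and 7 counts in SI gave 0.0468 CPM in COL BRAF, below the 0.0842 CPM of SI p53. Serpinb2, Mmp10 and Mmp13 were at 0 in all off cultures.

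Per kilobase of exon, a scale on which genes can be compared, the order of the members changed with the culture. In COL BRAF off organoids Plaur was at 18.4 CPM per kb, Mmp14 at 7.69, Mmp15 at 7.20 and Plat at 1.32, and the libraries of Mmp14 and Mmp15 overlapped. After induction Plaur was at 80.0, Mmp15 at 16.9, Mmp14 at 9.98 and Plat at 6.43 CPM per kb, with no overlap between neighbours. Serpine2 and Plau followed at 0.193 and 0.0751 CPM per kb. In SI p53 off organoids Mmp14 led with 2.5 CPM per kb, before Mmp15 with 1.84, Plaur with 0.994 and Plat with 0.100. In SI BRAFp53 off Mmp15 (1.91) and Mmp14 (1.79) overlapped and Plaur was at 1.34 CPM per kb, whereas in SI BRAFp53 on Plaur led with 10.4, before Mmp14 with 2.35, Mmp15 with 2.08 and Plat with 1.62 CPM per kb. In SI BRAF on organoids Plaur (13.8) was followed by Mmp15 (3.55) and Plat (3.28), which did not overlap.

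The wider list of the same systems held 36 further genes, 12 of the plasminogen system, 19 MMP genes and 5 inhibitors, of which 22 were tested in COL and 20 in SI. In COL BRAF 3 rose and 3 fell, where 10.3% of all genes rose and 9.61% fell, and in COL BRAFp53 4 rose and 1 fell (9.95% and 7.76% of all genes). In SI BRAF 3 rose and 1 fell (17.5% and 14.2%), so that 4 of 20 were called beside 31.7% of all genes. In SI BRAFp53 4 rose and none fell (6.98% and 4.53%), and no gene of the list was called in either p53 arm. The median log2 fold change of those tested was 0.26, 0.21, 0.10 and 0.57 in the 4 arms with BRAFV600E in this order, beside a median of all genes of -0.01, -0.04, -0.06 and -0.03. Neither Plg, the gene of plasminogen itself, with at most 55 counts per library, nor any of Mmp3, Mmp8, Mmp9 and Mmp12, with at most 6, was well represented.

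Anxa2 and S100a10, whose products form a complex that is known to bind plasminogen and the tissue-type activator at the cell surface, rose in all 4 arms with BRAFV600E. Anxa2 went from 1066 ± 13.5 to 3523 ± 274 CPM in COL BRAF (log2 fold change 1.72), from 1147 ± 81.7 to 4693 ± 798 CPM in COL BRAFp53 (2.03), from 988 ± 87.2 to 3098 ± 117 CPM in SI BRAF (1.65) and from 886 ± 139 to 1773 ± 70.3 CPM in SI BRAFp53 (1.0, SD and n = 2 for each). Its induced levels were above those of every member. In COL p53 Anxa2 was at 2693 and 2796 CPM already in the off libraries, and at 3708 and 2662 CPM on (0.21, SE 0.15, adjusted p = 0.788). S100a10 had log2 fold changes of 1.07 (COL BRAF), 1.03 (COL BRAFp53), 0.87 (SI BRAF) and 0.52 (SI BRAFp53), all called, the last lost without off replicate 2 (adjusted p = 0.0609). In SI the Anxa2 response of BRAFp53 was smaller than that of BRAF (-0.65, SE 0.16, adjusted p = 0.0248), and 5 of 8 fits without a library lost this call (adjusted p up to 0.116). The BRAFp53 response of Anxa2 was larger in COL than in SI (0.99, SE 0.20, adjusted p = 0.00947), lost without COL BRAFp53 on replicate 1 (adjusted p = 0.0521). Plgrkt, which encodes a plasminogen receptor of the membrane, rose in COL BRAFp53 from 194 ± 8.99 to 452 ± 83.9 CPM (1.22, SE 0.12, adjusted p = 7.18e-05).

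Serpini1 (neuroserpin, an inhibitor of the tissue-type activator) fell in COL BRAF, from 1.74 and 2.01 CPM to 0.268 and 0.213 CPM (-2.95, SE 0.64, adjusted p = 0.00669). This call was lost without on replicate 2 (-2.81). COL BRAFp53 was at 1.68 and 0.382 CPM off and 0.871 and 1.11 CPM on, which overlap (-0.05, SE 0.57, adjusted p = 0.971).

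Timp3, the gene of a matrix-bound MMP inhibitor, fell in 3 arms. COL BRAF went from 6.86 and 5.11 CPM to 1.32 and 0.255 CPM (log2 fold change -2.88, SE 0.52, adjusted p = 0.00246), or -4.55 without on replicate 1 and -2.19 without on replicate 2, both called. COL BRAFp53 went from 14.1 and 17.9 CPM to 2.37 and 4.57 CPM (-2.21, SE 0.47, adjusted p = 0.00736), lost without on replicate 1 (-1.81, adjusted p = 0.0762). SI BRAF went from 0.949 and 1.38 CPM to 0.0401 and 0.0516 CPM, at or under the floor (-4.62, SE 0.63, adjusted p = 0.000106). The SI BRAF calls of Anxa2, S100a10 and Timp3 held without on replicate 1. SI BRAFp53 was at 0.496 and 0.231 CPM off and 0.472 and 0.320 CPM on, which overlap, and the 2 SI responses differed (4.74, SE 0.80, adjusted p = 0.00326).

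The other MMP genes called were low or moved little. Mmp7 (matrilysin, which Paneth cells of the mouse are known to express) went from 1.79 and 2.03 CPM to 5.21 and 3.93 CPM in SI BRAFp53 (log2 fold change 1.26, SE 0.27, adjusted p = 0.00916), lost without off replicate 1 (adjusted p = 0.0802) or on replicate 1 (adjusted p = 0.0758). In COL organoids it was at 118 to 249 CPM in every library and rose in COL BRAF by 0.69 (SE 0.19, adjusted p = 0.0229), lost without any one of the 4 libraries (adjusted p of 0.0836 to 0.121). Mmp11 (stromelysin-3) went from 0.793 and 1.40 CPM to 0.234 and 0.128 CPM in COL BRAF (-2.57, SE 0.70, adjusted p = 0.0233), lost without off replicate 2, on replicate 1 or on replicate 2 (adjusted p of 0.119, 0.0732 and 0.137). Mmp23 went from 0.0466 and 0.0459 CPM, at the floor of 3 counts, to 0.653 and 0.657 CPM in COL BRAFp53 (3.77, SE 1.03, adjusted p = 0.0265). This call was lost without any one library (3.77 to 3.81). COL BRAF was at 0.731 and 1.33 CPM off and 1.44 and 1.53 CPM on, above the induced COL BRAFp53 libraries, and was not called.

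**Figure D4:**
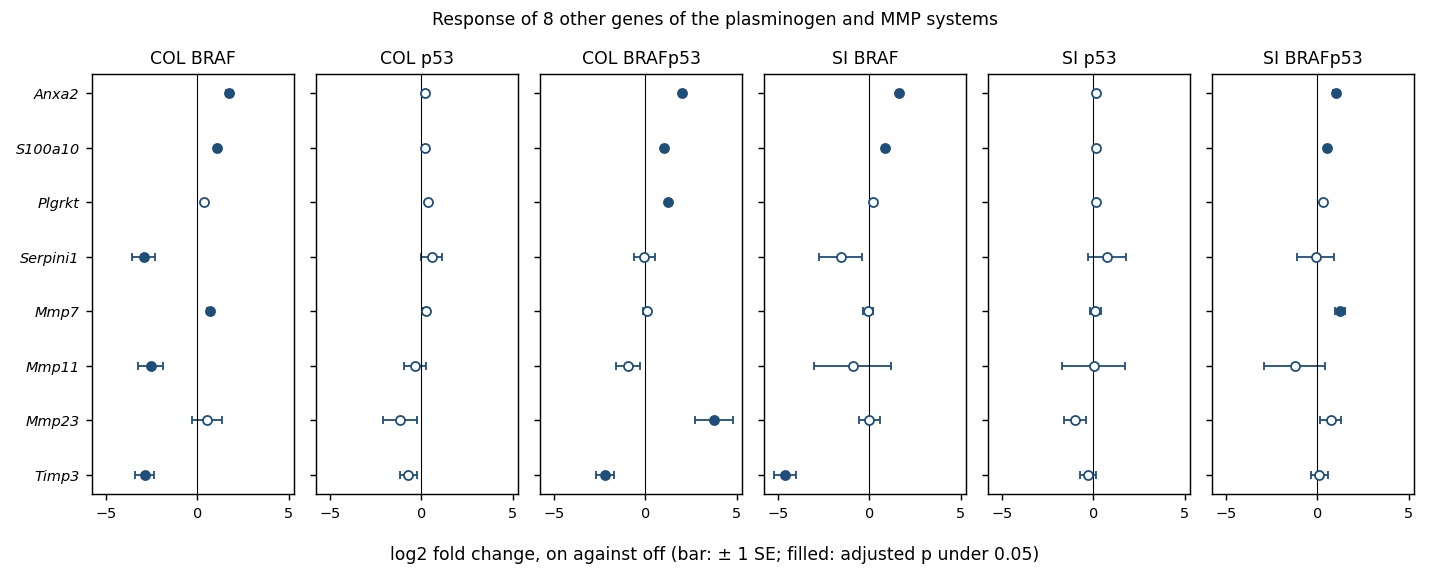
Log2 fold change of on against off for 8 further genes of the plasminogen and MMP systems (rows) in the 6 arms (panels), with bars of 1 SE and filled points for an adjusted p under 0.05. Anxa2 and S100a10 are filled and to the right of 0 in the 4 arms with BRAFV600E, and Timp3 is filled and to the left of 0 in 3 of them.

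To describe which transcripts moved most like a member, each of 16307 genes tested in both tissues was compared with it by Pearson's r over the 24 libraries, on log2(CPM + 0.5) less the mean of the culture's off libraries. The points share cultures and depth, and r is a description. Plaur was closest to Gprc5a (r = 0.974), Sprr1a (0.972) and Plk3 (0.972). Plat was closest to Oasl1 (0.965), Litaf (0.964) and Rab31 (0.963). Plaur and Plat had r = 0.901 with each other, where Plat ranked 186th of all genes for Plaur. Mmp15 was closest to Hspa1b (0.924) and Tpm1 (0.922), and had r = 0.578 with Plaur. Mmp14 was closest to Plut (0.766), Hoxa7 (0.742) and Bzw1 (0.716), and had r = 0.374 with Plaur. Without SI BRAF on replicate 1, over 23 libraries, these became 0.448, -0.14, 0.222 and 0.465, and Tomm40 (0.857), Gnb2 (0.839) and Pelo (0.813) were closest, so that the order for Mmp14 rests on that library. The genes named for Plaur and Plat were then still among the 6 closest, and those for Mmp15 among the 3 closest.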

How the data were processed

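RNA-Seq of 24 organoid libraries was re-analysed. The authors trimmed paired-end reads (Trimmomatic 0.36), then aligned and counted them with STAR (2.5.2b, versions from the submitters' processing notes). The deposited tables hold raw counts for each gene and library, not normalized and not pooled. The processing notes list both mm9 and mm10, and the methods name mm10 (GRCm38). Neither the annotation release nor strand use is given in the sources used here, so that reads of overlapping genes are uncertain. Of 45706 identifiers per table, 45143 matched a symbol of GENCODE release M21. All columns had a sample, and totals and the precision they give are stated with the results.

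Within each tissue, 12 libraries were scaled by TMM, filtered with filterByExpr and fitted with 1 mean per group by edgeR 4.0.16 (R 4.3.3, quasi-likelihood, Benjamini-Hochberg over all genes, called under 0.05). Differences between tissues came from a joint fit of 24 libraries, and off cultures were compared as sums of 2 libraries, 3 against 3. P-values within a culture measure spread between libraries of 1 group and not between animals. That spread was estimated over all 12 libraries of the tissue, and in the joint fit over all 24. P-values between off cultures measure the spread between 3 cultures per tissue. Alternatives were RLE size factors, no filter, DESeq2 1.42.0, limma-voom (limma 3.58.1), a replicate block, the 4 libraries of an arm alone, and leave-one-out fits. The comparison of patterns without SI BRAF on replicate 1 was chosen after seeing the data. The procedure was tested on simulated data. The members, lists and tests were chosen with earlier results of these data known. Named genes are the 9 members, up to 6 genes per tissue of the wider list that passed in an arm with BRAFV600E, by largest absolute log2 fold change (values are then given for both tissues), the 3 genes most like each member tested in both tissues, and Trp53 and Braf. Fam149a, Xist and the undetected genes of the wider list were named after their values were seen. Promoter sequences are from RefSeq. Results of 2 genes that these rules would name are not reported here, and the counts of genes include them.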

Additional observations from a re-analysis of the deposited data

Results flagged for a closer look

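Among the genes named here, 9 values passed the test of a difference between 2 responses, given as log2 with the cause not tested. Values of other genes of the wider list are not given. Between BRAFp53 and BRAF, the COL response of Plgrkt differed by 0.86 (BRAFp53 1.22, BRAF 0.36, adjusted p = 0.0466, lost in 6 of 8 leave-one-out fits). The SI response of Anxa2 differed by -0.65 (1.0 and 1.65), that of Mmp7 by 1.35 (1.26 and -0.09, adjusted p = 0.0464, lost in 7 of 8) and that of Timp3 by 4.74 (0.12 and -4.62, kept in 8 of 8).

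Between the tissues, COL less SI, the BRAF response of Mmp14 differed by -3.56 (0.38 and 3.88), which turned to 0.63 without SI BRAF on replicate 1 and was lost in 5 of 8. The BRAF response of Mmp15 differed by 0.77 (1.23 and 0.42, lost in 7 of 8). The BRAFp53 response of Plgrkt differed by 0.89 (1.22 and 0.30, adjusted p = 0.00547, kept in 8 of 8 leave-one-out fits), that of Anxa2 by 0.99 (2.03 and 1.0) and that of Mmp7 by -1.23 (0.07 and 1.26, adjusted p = 0.0363, lost in 7 of 8). Dose, day and medium cannot be told apart from tissue in these differences.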

How the results depend on the processing

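With 2 libraries per group from 1 culture, precision is limited by handling spread and, for genes near 3 counts, by depth. The calls of Plaur in the 4 arms with BRAFV600E, of Plat in COL BRAF, COL BRAFp53 and SI BRAF, and of Mmp15 and Serpine2 in COL BRAF held in every alternative and every fit without 1 library. Causes were not tested.

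The count of members called became 3 in COL p53 without the filter on low counts (0 in the main analysis), 1 in SI BRAFp53 in DESeq2 (2), and 1 for the COL difference of BRAFp53 and BRAF without the filter and in DESeq2 (0), which was Mmp15. It became 1 without the filter for that difference in SI (0), which was Mmp14. For COL less SI in BRAF it became 0 in limma-voom and 1 with the replicate block (2). For COL less SI in BRAFp53 it became 1 without the filter and in DESeq2 (0), which was Serpine2. The SI side of the latter held 7 and 0 counts off and 0 in both on libraries, so that no difference of responses is read from it. The wider list had 10 calls in COL BRAF without the filter and 10 in the 4 libraries of the arm (6), and 2 in COL p53 without the filter (0). Plau turned its sign in limma-voom to 0.90 in COL BRAFp53, 1.43 for BRAFp53 less BRAF in COL and 0.94 for COL less SI in BRAFp53. The last value holds no SI response, as Plau had 0 counts in every SI library.

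Leaving out 1 library gave 1 to 2 members in SI BRAFp53, 0 to 1 for its difference from BRAF and 0 to 2 for COL less SI in BRAF, and 3 to 6, 3 to 5 and 2 to 3 genes of the wider list in COL BRAF, COL BRAFp53 and SI BRAFp53. Signs turned for Plau in COL BRAF (-1.60 to 0.68), in COL BRAFp53 (-2.42 to 6.25) and for BRAFp53 less BRAF (-2.13 to 7.06). The upper end in COL BRAFp53 came without off replicate 2, where the fitted value depends on the prior count. The Plau values for COL less SI also turned (-1.58 to 0.68 in BRAF, -2.44 to 6.04 in BRAFp53). As Plau had 0 counts in all 12 SI libraries, these hold no SI response and are not read. Signs turned for Mmp14 in COL BRAFp53 (-0.0577 to 0.0184), SI BRAF (-0.28 to 4.77), SI p53 (-0.133 to 0.0711), BRAFp53 less BRAF in SI (-4.35 to 0.70) and COL less SI in BRAF (-4.39 to 0.63). In SI p53 they also turned for Plaur (-0.28 to 0.18), Plat (-0.21 to 5.05) and Mmp15 (-0.15 to 0.23), for Plat in the COL difference of BRAFp53 and BRAF (-0.44 to 0.35) and for Plaur in COL less SI in BRAF (-0.73 to 0.17).

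Same-numbered on and off libraries did not deviate together (correlations of -0.039 to 0.057), so that the numbers do not pair them. With the replicate block, Plau reversed for BRAFp53 less BRAF in COL (0.46), and Mmp15 in COL less SI of BRAF was lost, as were Plgrkt in the COL difference of BRAFp53 and BRAF (adjusted p = 0.0903) and Mmp7 in that of SI (0.0941) and in COL less SI of BRAFp53 (0.0558). Over all genes, calls in COL p53 went from 27 to 569 without the filter, 324 in DESeq2, 15 with the block and 14 in the arm alone, and in SI p53 from 0 to 155, 65, 0 and 17, with 1 in limma-voom. The COL difference of BRAFp53 and BRAF went from 172 to 1312, 1364 and 17, that in SI from 1383 to 2108 in DESeq2, and COL less SI in BRAFp53 from 693 to 1548 and 1580. Without 1 library these 3 ranged from 0 to 344, 604 to 2215 and 255 to 644, and COL less SI in BRAF from 1244 to 1942 (2108).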
